A study of Mus musculus with 18 samples.

Results

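The 8 genes described here encode interferon regulatory factors (IRF), the transcription factors *Irf1*, *Irf2*, *Irf3*, *Irf4*, *Irf5*, *Irf7*, *Irf8* and *Irf9*. They were chosen by symbol from the gene count table, which lists 56748 genes, and all 8 had enough counts to be tested. RNA was sequenced from the mouse macrophage line RAW264.7, labelled WT in every library, in 6 conditions with 3 libraries each. Control cells received no further treatment. TBHQ cells received 5 µM tert-butylhydroquinone, a phenolic food antioxidant, and were harvested after 4 h. LPS cells received 0.1 µg/mL bacterial lipopolysaccharide for 12 h, and PIC cells received 20 µg/mL of the double-stranded RNA mimic polyinosinic-polycytidylic acid for 12 h. LPS + TBHQ and PIC + TBHQ cells were given 5 µM TBHQ for 4 h before the same 12 h with the stimulus. TBHQ was dissolved in DMSO, while the control is described as medium alone. No sequenced group is described as given DMSO without TBHQ. The agent and its solvent therefore cannot be told apart in any comparison of cells with and without TBHQ. The study's legends place all groups but TBHQ alone in the 12 h design, and the methods give no hour for the control. In TBHQ against control the agent and the time of harvest therefore cannot be told apart, and if control cells were harvested at another hour than stimulated cells, the same holds for every comparison of those with control. All libraries come from 1 cell line, and the replicates are given as biological without saying which wells or plates make up each, so the p-values measure the spread between these libraries.

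IRF proteins bind GAAA-rich sites in DNA, among them the interferon-stimulated response element (ISRE). IRF3 and IRF7 are activated by kinases downstream of Toll-like and cytosolic RNA receptors and switch on type I interferon genes, and IRF9 is the DNA-binding subunit of the complex ISGF3, which carries the interferon signal to the ISRE. IRF1 activates and IRF2 mostly represses overlapping sets of genes, IRF5 serves inflammatory cytokine genes, and IRF4 and IRF8 act with the myeloid factor PU.1 in macrophages, dendritic cells and lymphocytes.

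The libraries held 14423390 to 18851626 counts on genes, with a median of 15742337. Levels are given as the FPKM the authors computed, with the SD over n = 3 libraries. FPKM here is fragments scaled to the listed gene length and library depth, times a constant per library. That constant differed between conditions, as given with the processing, so FPKM is not scaled by depth alone. Genes of different length can be compared by it only as far as the listed lengths are alike in kind. That of *Irf7* is not, as given below. The listed lengths of *Irf9* (5386 of 6460 bases of span), *Irf3* (3442 of 5201) and *Irf1* (3975 of 8360) also take up much of the span. That of *Irf5* is 2905 of 15247 bases. A like limit may hold for the levels of *Irf9*, *Irf3* and *Irf1*. Changes are log2 fold changes (log2FC) with their SE, estimated from the counts and tested with edgeR's quasi-likelihood test, and FDR is the p-value after Benjamini-Hochberg adjustment over the 13691 genes tested. A gene is said to have risen or fallen where the FDR was below 0.05. In bulk RNA, fewer cells of a kind and less RNA per cell cannot be told apart.

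The label of a macrophage line was checked against marker genes. All 7 macrophage markers were detected in every library with 171 to 99994 counts each, and the lysozyme gene *Lyz2* led them with a mean of 4531 FPKM in control cells. Of 4 T cell markers, 3 never exceeded 3 counts, taken as the floor of detection, and *Cd4* reached 4. B cell markers reached at most 10 counts, fibroblast markers 8 and epithelial markers 1. Of 3 markers of plasmacytoid dendritic cells, which use IRF7 heavily, the defining gene *Siglech* stayed at or under the floor in every library. *Bst2*, which is also a common interferon-inducible gene, was abundant and made up nearly all of that list's summed level. *Tcf4* was detected in every library, with 577 to 913 counts over a listed length of 27382 bases. Per length this was 1.87 FPKM in control, 1.69 FPKM with LPS and 1.79 FPKM with PIC. The sum of the 3 genes averaged 339.7 FPKM in control and 248 with TBHQ. It was 651 FPKM with LPS and 392.1 when TBHQ came first, and 709.6 FPKM with PIC and 572 when TBHQ came first. *Bst2* moved in the same order of conditions as *Irf7* below, and its part in the result was not tested.

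In control cells *Irf7* had the highest level of the family (60.2 ± 2.82 FPKM), followed by *Irf5* (47.9 ± 2.12 FPKM). *Irf9* and *Irf3* came next at 11.3 and 10.9 FPKM, and the libraries of this pair overlapped. Below them stood *Irf8* (6.80 FPKM), *Irf2* (4.69 FPKM) and *Irf1* (4.17 FPKM), each with its libraries apart from the next. *Irf4* was lowest at 0.645 ± 0.0791 FPKM, which rests on 29 to 61 counts per library over all 18 libraries. The counts behind *Irf7* ran from 2709 to 13131 and those behind *Irf1* from 195 to 446. The listed length of *Irf7* equals its whole span of 3776 bases, so its FPKM is per base of the span and is lower than a value per spliced transcript would be.

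The order of levels changed with treatment. With TBHQ alone *Irf5* (52.2 ± 3.44 FPKM) stood above *Irf7* (43.4 ± 1.08 FPKM), with no overlap between their libraries. That order rests on the listed length of *Irf7*, its whole span, and could differ per spliced transcript. With LPS, PIC and PIC + TBHQ *Irf1* stood above *Irf2*, the reverse of the control order. Summed over the 8 genes, the family's level was 147 FPKM in control and 132 with TBHQ. With LPS it was 274 FPKM, against 149 after TBHQ, and with PIC 307 FPKM, against 208 after TBHQ. *Irf7* alone made up 41.0% of that sum in control (SD 0.634), 32.9% with TBHQ (SD 0.399), 63.0% with LPS (SD 0.824) and 65.6% with PIC (SD 0.487). After TBHQ its share was 44.6% with LPS (SD 0.354) and 57.3% with PIC (SD 0.425). *Irf5* held 32.6% in control and 19.5% with PIC. Since the FPKM of *Irf7* is per base of its span, the sums and its shares are lower than they would be per spliced transcript. The shares of *Irf5* are higher for the same reason.

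**Figure D1:**
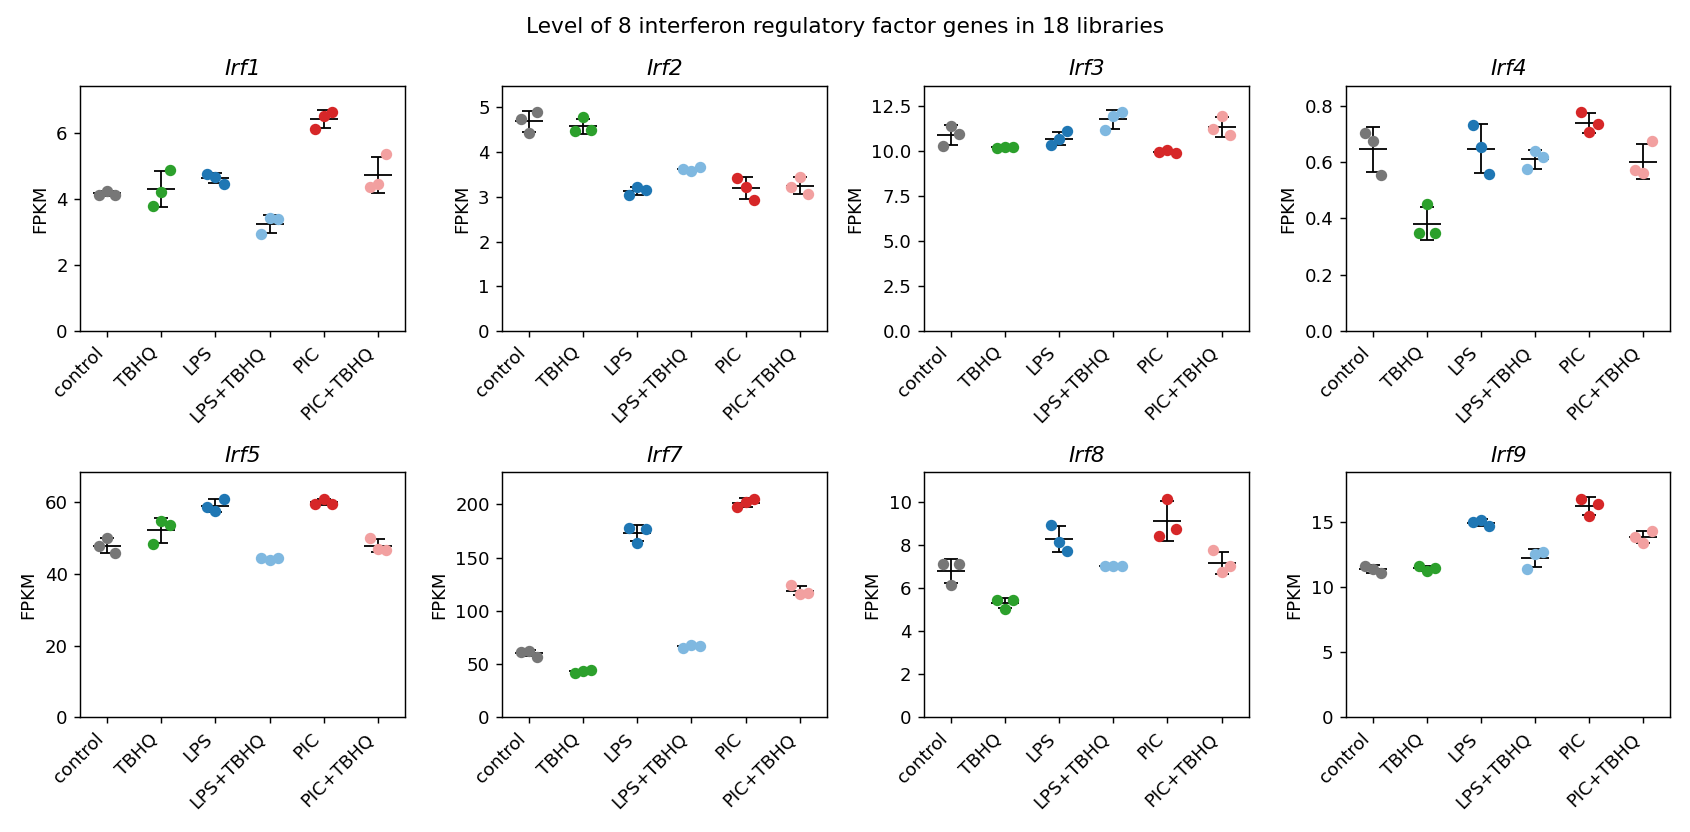
Level (FPKM) of each of the 8 IRF genes in the 18 libraries by condition. Points are libraries, horizontal lines with bars are the mean and SD of 3 libraries, and each axis starts at 0. Condition means of *Irf7* ran from 43.4 FPKM with TBHQ to 202 FPKM with PIC, while those of *Irf3* stayed between 9.98 and 11.8 FPKM.

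With LPS against control 4 of the 8 genes rose and 1 fell, where 48.1% of all tested genes changed (24.0% rose and 24.1% fell). With PIC against control 5 rose and 2 fell, where 58.7% of all genes changed (28.6% rose and 30.1% fell). The 5 of 8 with LPS lie near the background share, and the 7 of 8 with PIC lie above it with *Irf3* counted, whose call depended on single libraries as given below. With TBHQ alone 1 rose and 3 fell, beside a background of 29.0% (14.2% rose and 14.8% fell). The median log2FC of the 8 was 0.21 with LPS, 0.36 with PIC and -0.07 with TBHQ, and over all tested genes these medians were 0.00, -0.01 and 0.00.

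With TBHQ before a stimulus most of the family was lower. In LPS + TBHQ against LPS, 5 of 8 fell and 1 rose, where 23.9% of all genes changed (12.2% fell and 11.7% rose). In PIC + TBHQ against PIC, 5 fell and 1 rose, where 31.3% changed (15.5% fell and 15.8% rose). The same 5 genes, *Irf1*, *Irf5*, *Irf7*, *Irf8* and *Irf9*, fell in both. The median log2FC of the 8 was -0.26 with LPS and -0.30 with PIC, beside 0.00 and 0.01 over all tested genes.

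Compared with control, cells given TBHQ and then LPS had 1 gene of the family higher and 3 lower, beside a background of 43.7% (21.2% higher and 22.5% lower). Cells given TBHQ and then PIC had 2 higher and 1 lower, beside 52.4% (26.4% higher and 26.0% lower). These are 4 and 3 of 8, close to the background in the former and below it in the latter. PIC and LPS differed in 2 of 8 genes, each higher with PIC, near the background of 27.7% (14.9% higher and 12.8% lower). After TBHQ they differed in 3 of 8, all higher with PIC, beside 20.2% (11.9% higher and 8.39% lower). Whether the effect of TBHQ itself differed between the stimuli was tested as an interaction. *Irf7* alone of the 8 passed it, with a positive value, while 1.83% of all genes did (0.825% positive and 1.01% negative).

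The stricter threshold in the study's methods, an FDR under 0.01 together with a |log2FC| over 2, was reached by 0 of the 8 genes in every comparison. Among all genes it was reached by 0.190% with TBHQ, 1.64% with LPS and 3.57% with PIC. For TBHQ before a stimulus the shares were 0.387% in LPS cells and 0.299% in PIC cells, and between the stimuli 0.307% without TBHQ and 0.248% after it. Against control they were 0.964% for LPS + TBHQ and 2.15% for PIC + TBHQ, and 0% in the interaction. The largest |log2FC| of the family was that of *Irf7* with PIC at 1.73.

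Counted without a test, as 3 libraries all above or all below the other 3, the shares of all genes were high. This held for 6 of the 8 genes with LPS beside 53.6% of all genes, for 8 with PIC beside 62.4%, and for 4 with TBHQ alone beside 41.0%. It held for 7 in LPS cells after TBHQ beside 35.8%, and for 7 in PIC cells after TBHQ beside 41.8%. Between the stimuli the counts were 4 beside 37.1% and, after TBHQ, 5 beside 34.9%. Against control they were 4 beside 52.1% for LPS + TBHQ and 4 beside 58.5% for PIC + TBHQ.

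**Figure D2:**
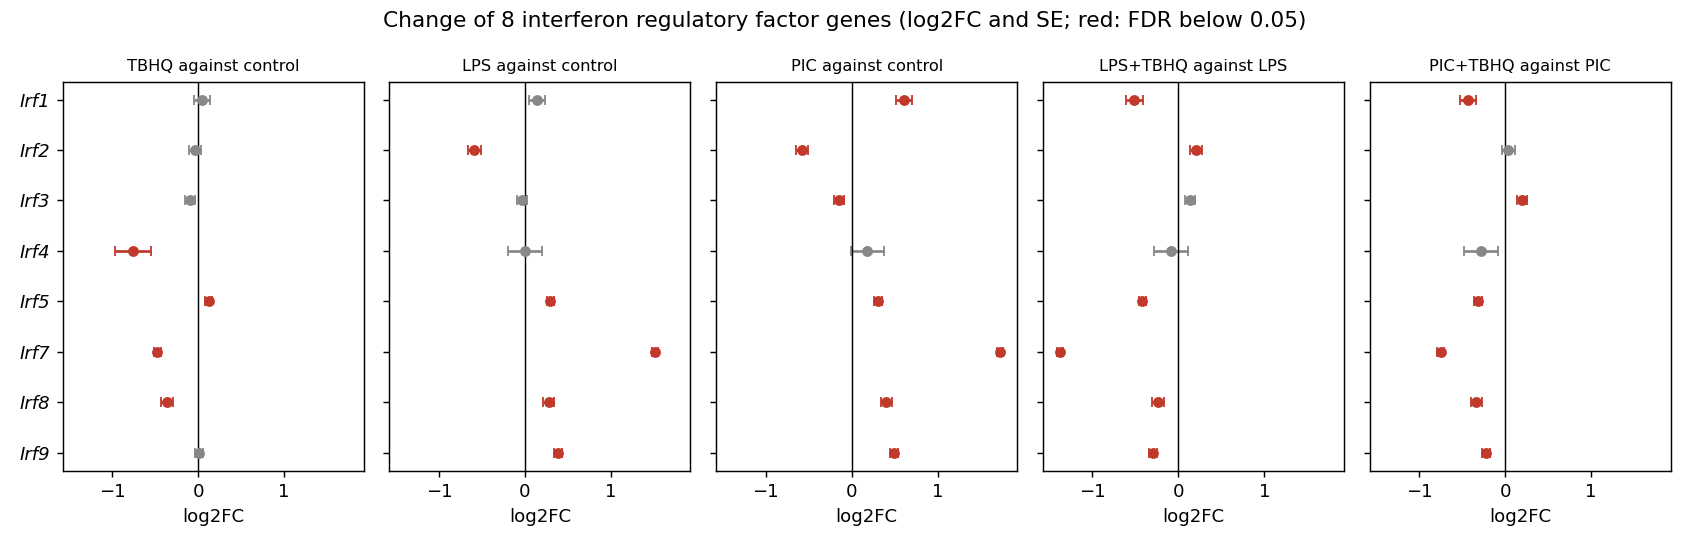
Change of each of the 8 IRF genes in 5 comparisons, as log2FC on the horizontal axis with bars of 1 SE on each side. Red points passed the test at an FDR of 0.05 and grey points did not. *Irf7* moved furthest with each stimulus and after TBHQ, at 1.51 with LPS, 1.73 with PIC, -1.38 with TBHQ before LPS and -0.75 with TBHQ before PIC.

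*Irf7* (ENSMUSG00000025498, chr7:140842619-140846394, minus strand, as the authors' files list it) encodes the factor that amplifies type I interferon production and is itself induced by interferon. Its level in the 3 control libraries was 61.1, 62.5 and 57.1 FPKM, with LPS 178, 164 and 177 FPKM and with PIC 198, 202 and 205 FPKM. Every stimulated library was above every control library, and every PIC library above every LPS library. *Irf7* rose 2.86-fold with LPS (log2FC 1.51, SE 0.04, FDR 2.0e-27) and 3.31-fold with PIC (log2FC 1.73, SE 0.04, FDR 1.3e-29), and was higher with PIC than with LPS (log2FC 0.21, SE 0.04, FDR 2.4e-05). The last of these was not called when counts were scaled by total library size (log2FC 0.08, FDR 0.063).

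After TBHQ the LPS libraries held 65.1, 68.0 and 66.8 FPKM of *Irf7* and the PIC libraries 124, 116 and 116 FPKM. The LPS + TBHQ libraries lay just above the control libraries, and the PIC + TBHQ libraries lay between control and PIC without touching either. *Irf7* was 2.60-fold lower after TBHQ in LPS cells (log2FC -1.38, SE 0.04, FDR 6.4e-25) and 1.68-fold lower in PIC cells (log2FC -0.75, SE 0.04, FDR 5.3e-18). As a difference in FPKM, the rise over control was 113 with LPS alone (SE 4.75) and 6.43 with LPS + TBHQ (SE 1.83). The matching rise was 141 with PIC alone (SE 2.77) and 58.8 with PIC + TBHQ (SE 3.09).

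The fall of *Irf7* was smaller in PIC cells than in LPS cells by 0.63 on the log2 scale, and this interaction passed edgeR's test (log2FC 0.63, SE 0.05, FDR 3.6e-10). It lay between 0.59 and 0.65 when each of the 18 libraries was left out in turn. *Irf7* therefore differed more between the stimuli after TBHQ (log2FC 0.84, SE 0.04, FDR 4.6e-19) than without it. Against control it remained higher in PIC + TBHQ (log2FC 0.98, SE 0.04, FDR 5.9e-22). In LPS + TBHQ it was higher than control by a small amount (log2FC 0.14, SE 0.04, FDR 0.0037), a call that was not made without control replicate 3 (log2FC 0.10, FDR 0.053) or with counts scaled by total library size (log2FC 0.07, FDR 0.1).

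TBHQ alone, at 4 h, gave 42.1, 43.9 and 44.1 FPKM of *Irf7*, all below the control libraries. The fall was 1.39-fold (log2FC -0.48, SE 0.04, FDR 7.1e-12). Side by side, the log2FC attributed to TBHQ was -0.48 without a stimulus, -1.38 before LPS and -0.75 before PIC. The value without a stimulus was measured 12 h earlier after exposure than the others, and its difference from them was not tested.

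*Irf3* (ENSMUSG00000003184, chr7:44647072-44652272, plus strand) encodes the constitutive partner of IRF7, which is regulated by phosphorylation more than by its amount. Its level was 10.3, 11.4 and 11.0 FPKM in control, 10.4, 10.7 and 11.1 FPKM with LPS and 9.94, 10.1 and 9.93 FPKM with PIC. Control and LPS libraries overlapped, while the PIC libraries lay just below the lowest control library. With LPS its log2FC was -0.03 (SE 0.06, FDR 0.69), and with TBHQ alone -0.10 (SE 0.06, FDR 0.25), neither of which passed. It fell slightly with PIC (log2FC -0.15, SE 0.06, FDR 0.039).

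That small fall of *Irf3* with PIC was not called by DESeq2 (FDR 0.11), with only the compared conditions in the fit (FDR 0.072), with RLE size factors (FDR 0.073), without a filter on low counts (FDR 0.14) or with a stricter one (FDR 0.074). Leaving out 1 library also ended the call for control replicate 2 (log2FC -0.11, FDR 0.17) and control replicate 3 (log2FC -0.14, FDR 0.083). The same held for LPS replicate 2 (log2FC -0.13, FDR 0.07), LPS replicate 3 (log2FC -0.13, FDR 0.066) and PIC + TBHQ replicate 1 (log2FC -0.14, FDR 0.051). Without PIC replicate 1, 2 or 3 the values were log2FC -0.13, FDR 0.12, then log2FC -0.14, FDR 0.098, then log2FC -0.13, FDR 0.13.

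With TBHQ before the stimulus *Irf3* stood at 11.2, 12.0 and 12.2 FPKM in LPS cells and 11.2, 12.0 and 10.9 FPKM in PIC cells, in each case above all libraries of that stimulus alone. *Irf3* was the gene of the family that rose in PIC + TBHQ against PIC (log2FC 0.20, SE 0.06, FDR 0.012). This call was lost without PIC replicate 1 (log2FC 0.18, FDR 0.054), PIC replicate 3 (log2FC 0.18, FDR 0.055) or PIC + TBHQ replicate 2 (log2FC 0.16, FDR 0.089). In LPS cells the log2FC was 0.14 (SE 0.06, FDR 0.1), which did not pass in edgeR's test and did pass with total library size (FDR 0.048) and in limma on FPKM with a pseudocount of 1 (FDR 0.047) or 0.1 (FDR 0.047). The highest and lowest condition means of *Irf3* differed 1.18-fold, the narrowest range of the 8 genes, and those of *Irf7* 4.65-fold, the widest.

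A list of sensors, adaptors and kinases that act upstream of IRF3 and IRF7 held 20 genes, all tested. With LPS 10 rose and 2 fell, beside 48.1% of all genes changed (24.0% rose and 24.1% fell). With PIC 12 rose and 5 fell, beside 58.7% (28.6% rose and 30.1% fell). The kinase gene *Ikbke* led with both stimuli (log2FC 1.56, SE 0.05, FDR 2.9e-23 with LPS and log2FC 2.28, SE 0.05, FDR 5.7e-29 with PIC). The related kinase gene *Tbk1* rose less (log2FC 0.39, SE 0.04, FDR 2.0e-09 with LPS and log2FC 0.65, SE 0.04, FDR 2.5e-15 with PIC). The DNA sensor gene *Tlr9* was the lowest of the list and fell with PIC (log2FC -1.70, SE 0.21, FDR 8.1e-09).

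With TBHQ alone 11 of these 20 genes fell and 4 rose, beside 29.0% of all genes changed (14.8% fell and 14.2% rose). After TBHQ 10 of the 20 fell and 1 rose in LPS cells, beside 23.9% of all genes changed (12.2% fell and 11.7% rose). In PIC cells 12 fell and 3 rose after TBHQ, beside 31.3% (15.5% fell and 15.8% rose). The RNA sensor gene *Ifih1* fell in both (log2FC -0.67, SE 0.05, FDR 1.1e-13 with LPS and log2FC -0.78, SE 0.04, FDR 2.2e-16 with PIC). The gene for the RNA-binding regulator *Dhx58* fell more in LPS cells (log2FC -0.87, SE 0.05, FDR 1.5e-16) than in PIC cells (log2FC -0.45, SE 0.05, FDR 1.1e-09), a difference that passed the interaction test (log2FC 0.43, SE 0.07, FDR 1.3e-04). The count in LPS cells includes *Ikbke* (log2FC -0.14, SE 0.05, FDR 0.039), which was not called without LPS replicate 1 (log2FC -0.11, FDR 0.19), LPS replicate 3 (log2FC -0.15, FDR 0.055) or LPS + TBHQ replicate 1 (log2FC -0.14, FDR 0.068), 2 (log2FC -0.15, FDR 0.053) or 3 (log2FC -0.11, FDR 0.17). *Traf3*, an adaptor gene, rose in PIC cells (log2FC 0.30, SE 0.06, FDR 1.3e-04). In LPS cells *Traf3* was the single riser (log2FC 0.17, SE 0.06, FDR 0.028) and was not called without LPS replicate 3 (log2FC 0.10, FDR 0.26) or LPS + TBHQ replicate 1, 2 or 3 (FDR 0.069, 0.061 and 0.059, with log2FC 0.16, 0.17 and 0.17).

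The interferon genes themselves were near or under detection. Of 12 listed, 0 had enough counts to be tested in edgeR, and 9 had no count in any of the 18 libraries. *Ifnk* reached 3 counts and *Ifnl3* 1 count. *Ifnb1*, the interferon beta gene, had 3, 1 and 0 counts in control, 0, 1 and 2 with LPS, and 12, 4 and 6 with PIC. With TBHQ it had 3, 3 and 2 counts, in LPS + TBHQ libraries 1, 2 and 2, and in PIC + TBHQ libraries 3, 2 and 0. The PIC libraries were the ones above the floor of 3 counts. No fold change is given for *Ifnb1*, since its control counts do not exceed the floor.

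*Irf9* (ENSMUSG00000002325, chr14:55841028-55847487, plus strand) encodes the DNA-binding subunit of ISGF3. Its level was 11.6, 11.4 and 11.0 FPKM in control, 14.998, 15.1 and 14.6 FPKM with LPS and 16.8, 15.4 and 16.3 FPKM with PIC. All stimulated libraries were above all control libraries. It rose with LPS (log2FC 0.39, SE 0.05, FDR 2.7e-08) and with PIC (log2FC 0.49, SE 0.05, FDR 5.7e-11).

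With TBHQ before the stimulus *Irf9* was at 11.4, 12.5 and 12.6 FPKM in LPS cells, which overlaps control, and 13.8, 13.4 and 14.2 FPKM in PIC cells, which does not. It fell relative to LPS alone (log2FC -0.30, SE 0.05, FDR 1.2e-05) and to PIC alone (log2FC -0.22, SE 0.05, FDR 5.3e-04), and against control it was higher in PIC + TBHQ (log2FC 0.28, SE 0.05, FDR 1.1e-05). TBHQ alone left it at 11.6, 11.2 and 11.4 FPKM, within the control range (log2FC 0.01, SE 0.05, FDR 0.94). The interaction was 0.08 (SE 0.07, FDR 0.67) and did not pass.

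Between the stimuli after TBHQ, *Irf9* was higher with PIC (log2FC 0.18, SE 0.05, FDR 0.005), and this was not called without LPS + TBHQ replicate 1 (log2FC 0.14, FDR 0.068) or with total library size (log2FC 0.10, FDR 0.14). The comparison of PIC with LPS did not pass (log2FC 0.11, SE 0.05, FDR 0.1) and did pass without PIC replicate 2 (log2FC 0.14, FDR 0.044). In LPS + TBHQ against control *Irf9* did not pass (log2FC 0.09, SE 0.05, FDR 0.13) and did pass without LPS + TBHQ replicate 1 (log2FC 0.14, FDR 0.031).

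*Stat2*, whose product stays with IRF9 in ISGF3, rose with LPS (log2FC 0.58, SE 0.05, FDR 5.1e-12) and PIC (log2FC 0.87, SE 0.05, FDR 3.2e-17) and fell after TBHQ (log2FC -0.80, SE 0.05, FDR 5.1e-15 with LPS and log2FC -0.52, SE 0.05, FDR 1.3e-10 with PIC). Its level was 13.7 FPKM in control, 20.6 FPKM with LPS and 25.3 FPKM with PIC. It also fell with TBHQ alone (log2FC -0.71, SE 0.05, FDR 8.9e-13), whereas *Irf9* did not pass there. The kinase gene *Jak2*, which acts at interferon receptors, rose with both stimuli (log2FC 0.76, SE 0.05, FDR 2.6e-14 with LPS and log2FC 1.25, SE 0.05, FDR 4.1e-21 with PIC), and the interferon gamma receptor gene *Ifngr1* fell (log2FC -0.42, SE 0.10, FDR 4.9e-04 with LPS and log2FC -0.35, SE 0.10, FDR 0.0021 with PIC).

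Of 12 genes known to be driven through the ISRE, 11 rose with LPS and 12 with PIC, where 24.0% and 28.6% of all genes rose, with a median log2FC of 1.21 and 2.40. After TBHQ 12 of 12 fell with either stimulus, where 12.2% of all genes fell in LPS cells and 15.5% in PIC cells, with a median log2FC of -1.77 in LPS cells and -1.29 in PIC cells. With TBHQ alone 9 of the 12 fell and 1 rose (median log2FC -0.50), beside 14.8% and 14.2% of all genes. In LPS + TBHQ against control 8 of the 12 were lower and 4 higher (median log2FC -0.47), beside 22.5% and 21.2% of all genes, whereas *Irf7* was slightly higher there. In PIC + TBHQ against control 10 of the 12 were higher and 0 lower (median log2FC 1.03), beside 26.4% and 26.0% of all genes. In the interaction 8 of 12 were positive at an FDR below 0.05 and 0 negative, beside 0.825% and 1.01% of all genes. The chemokine gene *Ccl5* rose furthest (log2FC 5.18, SE 0.08, FDR 1.5e-33 with LPS and log2FC 7.23, SE 0.08, FDR 7.9e-39 with PIC), and *Usp18*, whose product restrains interferon signalling, rose least with PIC (log2FC 0.68, SE 0.04, FDR 2.7e-17). The antiviral gene *Mx1* fell furthest after TBHQ in PIC cells (log2FC -1.99, SE 0.30, FDR 2.4e-06), and *Oas1a* fell least (log2FC -0.55, SE 0.04, FDR 1.1e-13 with LPS and log2FC -0.35, SE 0.04, FDR 3.4e-09 with PIC). In LPS + TBHQ libraries *Mx1* had 3, 1 and 1 counts, at or under the floor, so no fold change is given for it there.

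*Irf1* (ENSMUSG00000018899, chr11:53660841-53669200, plus strand) encodes an activator that responds to interferon gamma and NF-κB. Its level was 4.13, 4.25 and 4.12 FPKM in control, 4.76, 4.66 and 4.45 FPKM with LPS and 6.10, 6.50 and 6.63 FPKM with PIC. The PIC libraries were the highest of all 18, and the LPS libraries lay a little above control. It rose 1.52-fold with PIC (log2FC 0.61, SE 0.09, FDR 6.3e-07) and was higher with PIC than with LPS (log2FC 0.46, SE 0.09, FDR 1.8e-04). With LPS at 12 h the change did not pass (log2FC 0.14, SE 0.10, FDR 0.23).

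After TBHQ *Irf1* stood at 2.93, 3.42 and 3.38 FPKM in LPS cells and 4.37, 4.44 and 5.36 FPKM in PIC cells. The LPS + TBHQ libraries were the lowest of the 18, below control. It fell relative to LPS (log2FC -0.51, SE 0.10, FDR 1.3e-04), to PIC (log2FC -0.43, SE 0.09, FDR 3.6e-04) and, in LPS + TBHQ, to control (log2FC -0.37, SE 0.10, FDR 0.0023). In PIC + TBHQ it did not pass against control (log2FC 0.18, SE 0.09, FDR 0.12), and it was higher there than in LPS + TBHQ (log2FC 0.55, SE 0.10, FDR 4.7e-05). TBHQ alone gave 3.79, 4.22 and 4.87 FPKM, a wide spread around the control values (log2FC 0.04, SE 0.09, FDR 0.8).

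Of 8 genes known as IRF1 targets, 7 rose with LPS and 8 with PIC, where 24.0% and 28.6% of all genes rose. After TBHQ 8 fell in LPS cells and 7 in PIC cells, where 12.2% and 15.5% of all genes fell. With TBHQ alone 6 of the 8 fell and 0 rose, beside 14.8% and 14.2% of all genes. The guanylate-binding protein gene *Gbp2* moved furthest, up with LPS (log2FC 3.14, SE 0.13, FDR 2.8e-21) and PIC (log2FC 3.81, SE 0.12, FDR 1.2e-24) and down after TBHQ (log2FC -2.80, SE 0.12, FDR 1.1e-19 with LPS and log2FC -1.51, SE 0.10, FDR 7.9e-15 with PIC). *Casp1*, which encodes the inflammatory caspase, changed least after TBHQ in PIC cells (log2FC -0.05, SE 0.05, FDR 0.5). *Psmb9*, an immunoproteasome gene, did not pass with LPS (log2FC 0.06, SE 0.10, FDR 0.67), at an LPS level (6.46 FPKM) near that in control (6.17 FPKM). Its rise with PIC (log2FC 0.27, SE 0.10, FDR 0.018) was not called without control replicate 1 (log2FC 0.22, FDR 0.1), control replicate 3 (log2FC 0.25, FDR 0.061) or PIC replicate 2 (log2FC 0.21, FDR 0.11). The fall of *Casp1* after TBHQ in LPS cells (log2FC -0.17, SE 0.05, FDR 0.0063) was not called without LPS replicate 2 (log2FC -0.13, FDR 0.076).

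*Irf2* (ENSMUSG00000031627, chr8:47192767-47300493, plus strand) encodes the counterpart of IRF1 at many of the same sites. Its level was 4.75, 4.43 and 4.90 FPKM in control, 3.03, 3.22 and 3.16 FPKM with LPS and 3.43, 3.21 and 2.94 FPKM with PIC. Every stimulated library was below every control library. *Irf2* fell 1.503-fold with LPS (log2FC -0.59, SE 0.07, FDR 1.2e-08) and 1.49-fold with PIC (log2FC -0.58, SE 0.07, FDR 1.0e-08), the largest fall with each stimulus among the 8 genes.

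TBHQ alone left *Irf2* at 4.47, 4.78 and 4.49 FPKM, overlapping control (log2FC -0.04, SE 0.07, FDR 0.73). Before PIC it made no difference that passed (3.23, 3.45 and 3.07 FPKM, log2FC 0.04, SE 0.07, FDR 0.73). Before LPS *Irf2* was at 3.61, 3.59 and 3.66 FPKM, above all libraries of LPS alone and below all of control. That rise over LPS was called by a small margin (log2FC 0.20, SE 0.07, FDR 0.038), and the fall from control remained in both (log2FC -0.38, SE 0.07, FDR 1.9e-05 with LPS + TBHQ and log2FC -0.54, SE 0.07, FDR 5.1e-08 with PIC + TBHQ).

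The small rise of *Irf2* over LPS was not called by DESeq2 (FDR 0.059), with only the compared conditions in the fit (FDR 0.057) or without a filter on low counts (FDR 0.065). It was also lost without LPS replicate 1 (log2FC 0.18, FDR 0.14), LPS replicate 2 (log2FC 0.23, FDR 0.052) or LPS replicate 3 (log2FC 0.21, FDR 0.067). Without LPS + TBHQ replicate 1, 2 or 3 the values were log2FC 0.21, FDR 0.073, then log2FC 0.21, FDR 0.069, then log2FC 0.20, FDR 0.097.

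Among proteins that bind IRF2, the corepressor gene *Irf2bp2* fell with LPS (log2FC -0.73, SE 0.08, FDR 2.1e-09) and PIC (log2FC -1.03, SE 0.08, FDR 5.6e-13) and rose after TBHQ (log2FC 0.34, SE 0.08, FDR 0.0026 with LPS and log2FC 0.66, SE 0.09, FDR 1.5e-07 with PIC). Its level was 7.45, 8.83 and 8.53 FPKM in control, 4.25, 3.54 and 4.49 FPKM with PIC and 6.81, 5.85 and 6.70 FPKM with PIC + TBHQ, 3 groups without overlap. *Irf2bpl* rose after TBHQ (log2FC 0.19, SE 0.05, FDR 0.0028 with LPS and log2FC 0.41, SE 0.05, FDR 1.2e-08 with PIC).

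*Irf5* (ENSMUSG00000029771, chr6:29526624-29541870, plus strand) encodes a factor that serves cytokine genes downstream of Toll-like receptors. Its level was 47.8, 50.01 and 45.8 FPKM in control, 58.6, 57.6 and 61.0 FPKM with LPS and 59.4, 61.0 and 59.6 FPKM with PIC. All stimulated libraries were above all control libraries, and LPS and PIC overlapped. It rose 1.23-fold with LPS (log2FC 0.30, SE 0.04, FDR 6.3e-07) and 1.24-fold with PIC (log2FC 0.31, SE 0.04, FDR 1.7e-07). With total library size the rise with PIC was not called (log2FC 0.09, FDR 0.06).

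After TBHQ *Irf5* stood at 44.3, 43.9 and 44.5 FPKM in LPS cells, all below control, and at 49.98, 47.0 and 46.7 FPKM in PIC cells, which overlap control. It fell relative to LPS (log2FC -0.42, SE 0.04, FDR 1.8e-09) and to PIC (log2FC -0.31, SE 0.04, FDR 5.5e-07). The interaction was 0.10 (SE 0.06, FDR 0.47) and did not pass. Against control PIC + TBHQ did not pass (log2FC -0.01, SE 0.04, FDR 0.93), and it was called lower with total library size (log2FC -0.15, FDR 0.0026).

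Smaller differences in *Irf5* depended on single libraries. Its fall below control in LPS + TBHQ (log2FC -0.12, SE 0.04, FDR 0.022) was lost without control replicate 2 (log2FC -0.09, FDR 0.15), LPS + TBHQ replicate 1 (log2FC -0.12, FDR 0.052) or LPS + TBHQ replicate 2 (log2FC -0.12, FDR 0.066). It was also lost without a filter on low counts (FDR 0.072) and in limma on FPKM (FDR 0.051 and 0.0504 with pseudocounts of 1 and 0.1). PIC + TBHQ against LPS + TBHQ did not pass (log2FC 0.12, SE 0.04, FDR 0.057) and did pass without TBHQ replicate 1 (log2FC 0.11, FDR 0.043) or with only the compared conditions in the fit (log2FC 0.11, FDR 0.048).

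TBHQ alone gave 48.3, 54.7 and 53.6 FPKM of *Irf5*, and the lowest of these lies within the control range. The rise was called (log2FC 0.12, SE 0.04, FDR 0.033), and it was the only rise in the family with TBHQ alone by edgeR's test. It was not called without control replicate 1 (log2FC 0.12, FDR 0.072), control replicate 3 (log2FC 0.09, FDR 0.19), TBHQ replicate 2 (log2FC 0.09, FDR 0.22) or TBHQ replicate 3 (log2FC 0.10, FDR 0.14), nor without a filter on low counts (FDR 0.051).

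The end of *Irf5* overlaps the end of *Tnpo3* on the opposite strand over 1045 bases, and 11% of the 50-base words of *Irf5* transcripts also occur in *Tnpo3*. The labels name both stranded and unstranded preparation, the study's methods name stranded libraries alone, and the strand setting of the counting is not given in the sources used here, so reads in the overlap could not be assigned with certainty. *Tnpo3* fell with LPS (log2FC -0.16, SE 0.04, FDR 0.0027), did not pass with PIC (log2FC -0.08, SE 0.04, FDR 0.12), and did not pass after TBHQ (log2FC 0.08, SE 0.04, FDR 0.18 with LPS and log2FC 0.04, SE 0.04, FDR 0.57 with PIC). With TBHQ alone, where the small rise of *Irf5* was called, *Tnpo3* did not pass (log2FC 0.10, SE 0.04, FDR 0.089). Other overlaps were smaller in words shared: *Irf3* shares 1.1% with *Bcl2l12* on the opposite strand, *Irf1* 1.24% with *Gm17334*, and *Irf2*, *Irf4*, *Irf7* and *Irf8* share 0. *Irf7* does overlap *Phrf1* on the opposite strand over 45 bases, which is too short for a word of 50 bases to show. *Irf9* shares 1.82% with *Rnf31* and a number of other genes. *Rnf31* overlaps it on the same strand over 123 bases. *Rnf31* rose with LPS (log2FC 0.21, SE 0.06, FDR 0.0052) and PIC (log2FC 0.28, SE 0.06, FDR 1.4e-04). After TBHQ it did not pass (log2FC -0.06, SE 0.06, FDR 0.54 with LPS and log2FC 0.07, SE 0.06, FDR 0.41 with PIC). Its part in the counts of *Irf9* was not tested.

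*Irf8* (ENSMUSG00000041515, chr8:121463097-121483433, plus strand) encodes a factor needed for the macrophage and dendritic lineages. Its level was 7.12, 6.18 and 7.11 FPKM in control, 8.94, 8.16 and 7.73 FPKM with LPS and 8.45, 10.2 and 8.75 FPKM with PIC. Stimulated libraries were all above control, with LPS and PIC overlapping each other. *Irf8* rose with LPS (log2FC 0.28, SE 0.07, FDR 9.0e-04) and with PIC (log2FC 0.41, SE 0.07, FDR 2.6e-06).

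With TBHQ alone *Irf8* fell to 5.44, 5.04 and 5.46 FPKM, the lowest of the 18 libraries (log2FC -0.36, SE 0.07, FDR 1.3e-04). After TBHQ it was at 7.04, 7.03 and 7.06 FPKM in LPS cells and 7.76, 6.75 and 7.02 FPKM in PIC cells, both overlapping control. The fall from PIC was -0.33 (SE 0.07, FDR 1.7e-04) in log2FC, and that from LPS -0.23 (SE 0.07, FDR 0.0087). Without LPS replicate 1 the latter was not called (log2FC -0.18, FDR 0.09). Neither group passed against control (log2FC 0.04, SE 0.07, FDR 0.67 with LPS + TBHQ and log2FC 0.07, SE 0.07, FDR 0.39 with PIC + TBHQ).

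*Irf4* (ENSMUSG00000021356, chr13:30933209-30950959, plus strand), best known from lymphocytes and alternatively activated macrophages, was the least abundant of the 8. Its level was 0.704, 0.676 and 0.555 FPKM in control and 0.347, 0.449 and 0.347 FPKM with TBHQ. The 3 TBHQ libraries were the lowest of all 18. *Irf4* fell 1.69-fold with TBHQ alone (log2FC -0.76, SE 0.21, FDR 0.0052).

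In every other comparison *Irf4* did not pass. Its level was 0.732, 0.653 and 0.556 FPKM with LPS, 0.777, 0.704 and 0.735 FPKM with PIC, 0.573, 0.638 and 0.616 FPKM with LPS + TBHQ and 0.571, 0.560 and 0.674 FPKM with PIC + TBHQ. The log2FC was 0.18 (SE 0.19, FDR 0.44) with PIC and -0.28 (SE 0.20, FDR 0.3) with TBHQ before PIC. The SE of these values, about 0.20, is the largest of the family. In limma on log2(FPKM + 1) the fall with TBHQ was smaller in size (log2FC -0.25, FDR 0.0029), where the pseudocount exceeds the level of the gene.

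Of 8 genes for partners of IRF4 and IRF8 and for IRF2 binding proteins, 5 had enough counts. With PIC 3 of the 5 rose and 2 fell, beside 58.7% of all genes changed, and with total library size 1 rose. *Irf2bpl* is among the 3 (log2FC 0.12, SE 0.05, FDR 0.038) and was not called without control replicate 1 (log2FC 0.11, FDR 0.1), control replicate 2 (log2FC 0.10, FDR 0.13) or PIC replicate 3 (log2FC 0.10, FDR 0.11). *Spi1*, which encodes PU.1, was abundant at 139 ± 3.54 FPKM in control and rose with PIC (log2FC 0.15, SE 0.04, FDR 0.0031), a change that turned to -0.07 (FDR 0.14) with total library size. TBHQ before PIC did not change it by the test (log2FC 0.01, SE 0.04, FDR 0.89). *Batf2* rose with PIC (log2FC 0.75, SE 0.22, FDR 0.0041). *Spib*, *Batf* and *Batf3* were not tested, with at most 2, 5 and 3 counts in a library.

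In LPS against control, where 48.1% of all genes changed, 2 of the 5 rose and 2 fell. The rise of *Spi1* (log2FC 0.12, SE 0.04, FDR 0.023) was not called without control replicate 1 (log2FC 0.10, FDR 0.11) or LPS replicate 3 (log2FC 0.07, FDR 0.22). The rise of *Irf2bpl* (log2FC 0.13, SE 0.05, FDR 0.029) was not called without control replicate 1 (log2FC 0.12, FDR 0.082), control replicate 2 (log2FC 0.11, FDR 0.11), LPS replicate 1 (log2FC 0.13, FDR 0.059) or LPS replicate 3 (log2FC 0.11, FDR 0.1).

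In LPS + TBHQ against LPS, where 23.9% of all genes changed, 2 of the 5 rose, *Irf2bp2* and *Irf2bpl*, and 2 fell, *Spi1* and *Batf2*. *Spi1* was at 146, 143 and 164 FPKM with LPS and 135, 135 and 138 FPKM with LPS + TBHQ, without overlap. Its fall (log2FC -0.16, SE 0.04, FDR 0.0062) was not called without LPS replicate 3 (log2FC -0.09, FDR 0.12). The fall of *Batf2* (log2FC -0.83, SE 0.26, FDR 0.016) was not called without LPS replicate 3 (log2FC -0.72, FDR 0.073) or LPS + TBHQ replicate 3 (log2FC -0.62, FDR 0.12).

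In PIC + TBHQ against PIC, where 31.3% of all genes changed, the same 2 of the 5 rose, and *Batf2* fell (log2FC -0.79, SE 0.23, FDR 0.0064). The fall of *Batf2* was not called without PIC replicate 1 (log2FC -0.65, FDR 0.055), PIC + TBHQ replicate 1 (log2FC -0.67, FDR 0.0505) or PIC + TBHQ replicate 3 (log2FC -0.64, FDR 0.058).

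Among genes known to limit IRF or interferon signalling, *Socs3*, which encodes a cytokine signalling suppressor, rose with both stimuli (log2FC 4.15, SE 0.06, FDR 7.8e-34 with LPS and log2FC 4.82, SE 0.06, FDR 1.2e-36 with PIC) and fell after TBHQ (log2FC -0.85, SE 0.05, FDR 5.6e-17 with LPS and log2FC -0.69, SE 0.04, FDR 2.9e-15 with PIC). *Tnfaip3*, which encodes the ubiquitin-editing enzyme A20, rose with PIC (log2FC 3.24, SE 0.05, FDR 1.0e-35) and fell after TBHQ in PIC cells (log2FC -0.83, SE 0.04, FDR 8.3e-19). The fall of *Tnfaip3* was larger in PIC than in LPS cells (log2FC -0.30, SE 0.06, FDR 0.0014 for the interaction), the opposite sign to *Irf7*. *Ptpn6*, a phosphatase gene, fell with PIC (log2FC -0.37, SE 0.03, FDR 1.1e-11).

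After TBHQ *Ptpn6* rose slightly in LPS cells (log2FC 0.11, SE 0.03, FDR 0.019) and in PIC cells (log2FC 0.11, SE 0.03, FDR 0.013). The former was not called without LPS replicate 2 (log2FC 0.08, FDR 0.12) or LPS + TBHQ replicate 1 (log2FC 0.09, FDR 0.09). The latter was not called without PIC replicate 1 (log2FC 0.08, FDR 0.12), PIC replicate 2 (log2FC 0.10, FDR 0.066), PIC + TBHQ replicate 1 (log2FC 0.09, FDR 0.083) or PIC + TBHQ replicate 3 (log2FC 0.10, FDR 0.07).

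Across the 18 libraries the genes of the family did not move as 1 block. Pearson's r of log2 CPM (counts scaled to library depth) was 0.9570 between *Irf7* and *Irf9*, 0.8759 between *Irf7* and *Irf8*, and -0.8727 between *Irf7* and *Irf2*. *Irf3* had r of -0.2442 with *Irf7* and -0.6928 with *Irf5*. These values describe n = 18 libraries in 6 conditions, and differences between conditions and between libraries are not separated in them. The genes most like *Irf7* were *Lgals9* (r 0.9944), *H2-D1* (r 0.9919) and *Oas1a* (r 0.9907). Those most like *Irf9* were *Psma6* (r 0.9716), *Gbp2b* (r 0.9707) and *Smox* (r 0.9644).

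*Irf2* was most like *Prr11* (r 0.9731), *Ckap5* (r 0.9695) and *Cenpa* (r 0.9646), which are genes of cell division. *Irf1* was most like *Tnip3* (r 0.9151), *Zbtb32* (r 0.9100) and *Cd44* (r 0.9009). *Irf8* was most like *Cox7a2l* (r 0.9510), *Ubb* (r 0.9499) and *Paip2* (r 0.9458). For *Irf5* the list was *Plekha2* (r 0.9106), *Cttnbp2nl* (r 0.9051) and *Vegfc* (r 0.9002). *Irf4* had *Evl* (r 0.9138), *Tpi1* (r 0.8973) and *Cd86* (r 0.8875), and *Irf3* had *Ostm1* (r 0.8719), *Echs1* (r 0.8710) and *Neu1* (r 0.8707), all over 18 libraries.

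The RefSeq promoter table of GRCm38.p6 held 11 windows for the 8 genes, each from 250 bases before to 50 after a transcription start. They were searched on both strands for the ISRE core, the GAS element, the antioxidant response element core and the kappa B consensus. Of 32851 promoter windows in the table, 3.44% hold the ISRE core, 8.3% GAS, 12.4% the antioxidant response element core and 8.46% the kappa B consensus. Matches were found for *Irf1*, *Irf2*, *Irf7* and *Irf8*, and the letters searched were not in the windows of *Irf3*, *Irf4*, *Irf5* and *Irf9*. A match describes the sequence and says nothing of binding.

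The 250 bases before the start are printed for the 4 genes with a match, with the matches in capitals. *Irf1* (chr11:53769764-53770013, plus strand) holds GAS at -90 to -82 and kappa B at -13 to -4 from the start. *Irf2* (chr8:46739495-46739744, plus strand) holds the ISRE core at -241 to -232, GAS at -224 to -216 and kappa B at -17 to -8. *Irf7* (chr7:141266425-141266674, minus strand) holds the antioxidant response element core, read on the opposite strand, at -245 to -237. *Irf8* (chr8:120736108-120736357, plus strand) holds GAS at -171 to -163 and again at -153 to -145, and the window of its other start has the antioxidant response element core at -25 to -17.
Irf1: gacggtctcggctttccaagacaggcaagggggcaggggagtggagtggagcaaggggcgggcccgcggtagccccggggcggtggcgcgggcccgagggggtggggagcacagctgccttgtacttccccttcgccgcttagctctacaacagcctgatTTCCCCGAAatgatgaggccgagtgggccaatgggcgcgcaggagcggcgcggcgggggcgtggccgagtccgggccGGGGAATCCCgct
Irf2: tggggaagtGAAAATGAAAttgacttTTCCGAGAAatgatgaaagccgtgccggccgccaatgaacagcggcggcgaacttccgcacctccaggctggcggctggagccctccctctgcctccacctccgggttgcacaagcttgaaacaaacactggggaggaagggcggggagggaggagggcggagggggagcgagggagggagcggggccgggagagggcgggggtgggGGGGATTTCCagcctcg
Irf7: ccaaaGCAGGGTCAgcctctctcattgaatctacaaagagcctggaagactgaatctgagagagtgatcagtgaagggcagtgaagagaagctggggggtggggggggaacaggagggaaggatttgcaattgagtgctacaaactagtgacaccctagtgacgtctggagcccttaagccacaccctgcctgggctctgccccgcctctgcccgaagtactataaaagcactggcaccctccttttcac
Irf8: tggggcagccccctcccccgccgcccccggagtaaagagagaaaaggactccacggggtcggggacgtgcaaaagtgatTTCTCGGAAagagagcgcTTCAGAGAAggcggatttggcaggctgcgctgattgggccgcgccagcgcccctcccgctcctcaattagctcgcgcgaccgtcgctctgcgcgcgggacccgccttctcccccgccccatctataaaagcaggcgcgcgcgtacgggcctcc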

How the data were processed

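Libraries were made from RNA selected with poly-T beads. The submitters' processing notes name HISAT2 2.0.5, StringTie 1.3.3b and featureCounts 1.5.0-p3. The authors deposited raw counts per gene without normalization and FPKM, and the gene length listed beside them in the deposited files. The deposited FPKM equal counts divided by gene length and library depth, times a constant of 0.943 to 1.12 per library. The constant followed the condition. It was 0.951, 0.946 and 0.943 in control, 1.01, 1.005 and 1.01 with LPS, and 1.11, 1.12 and 1.11 with PIC. With PIC + TBHQ it was 1.06, 1.05 and 1.05. TMM factors ran the other way, at 1.06 in control replicate 1 and 0.913 in PIC replicate 1. Levels, libraries without overlap and limma on FPKM all carry this constant. The notes name both GRCm38 and mm39, so gene positions are given as the files list them and promoter positions as the GRCm38.p6 table does. There were 0 columns without a sample.

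Counts were tested in edgeR 4.0.16 (R 4.3.3) with filterByExpr, TMM and glmQLFTest, as 1 model of all 18 libraries with a mean for each condition (27701 genes with a count, 13691 tested, common dispersion 0.00192). An FDR below 0.05 was called. An SE is the |log2FC| divided by the root of the F statistic. Correlations used log2 CPM with a prior count of 2, among genes with a mean of at least 50 counts. Python 3.11.15 (pandas 2.3.3, numpy 2.4.6) and matplotlib 3.10.9 made the summaries and figures. The edgeR step was tested on simulated data for LPS + TBHQ against LPS. Alternatives were DESeq2 1.42.0, edgeR on the compared conditions, RLE or total library size, no filter or a mean of at least 50 counts, the replicate number as a block, limma 3.58.1 on log2(FPKM + 1) or log2(FPKM + 0.1), a stricter threshold, levels as TMM-scaled CPM per kilobase, and leaving out each library in turn. With 3 libraries against 3, an exact permutation test of 1 gene cannot go below 0.1, so none was run.

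The members and lists were chosen with earlier results of these data known. Named from each list are the genes with the highest and the lowest log2FC in the comparisons of each stimulus with control and of TBHQ within each stimulus, with *Ifnb1*, *Tbk1*, *Ikbke*, *Stat2* and *Spi1* always. Overlapping genes and marker genes were named besides. Some genes meeting this rule, and counts of lists that hold them, are not reported here. Lists came from general knowledge, and of 22 names for sensors, adaptors and kinases 20 are symbols in the files. Likeness takes the 3 genes with the highest r. Protein sequences were not used here. The floor of 3 counts covers counting error only.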

Additional observations from a re-analysis of the deposited data

Results flagged for a closer look

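A difference between the effect of TBHQ in PIC cells and in LPS cells, tested as an interaction in edgeR with Benjamini-Hochberg adjustment, was called for 7 of the named genes. Among all tested genes it was called for 1.83%. The 7 are not set against that share, since most named genes were picked as extremes of their lists in these same data. A positive value means that the change with TBHQ was higher in PIC cells. It was 0.63 for *Irf7*, whose level after TBHQ fell from 173 to 66.6 FPKM with LPS and from 202 to 119 FPKM with PIC. The value was 1.29 (SE 0.16, FDR 1.9e-06) for *Gbp2*. For *Ccl5* it was 0.62 (SE 0.08, FDR 1.9e-06) and for *Dhx58* 0.43. *Usp18* had 0.30 (SE 0.06, FDR 0.0012) and *Stat2* 0.28 (SE 0.07, FDR 0.028). *Tnfaip3* was the single gene of these with a negative value, -0.30, having fallen more in PIC cells. It had been named as the lowest of its list after TBHQ in PIC cells, and *Dhx58* as the lowest in LPS cells. Such a choice favours the sign of their values.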

How the results depend on the processing

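For the 8 genes in 10 comparisons, leaving out each library in turn gave 1440 values, of which 1410 kept their direction and call, or changed sign without a call in either fit (29), 27 were no longer called and 3 became called. Under the other settings these numbers were 686 of 710 (16 with a change of sign without a call), with 16 no longer called, 7 newly called and 1 turned. With FDR under 0.01 and |log2FC| over 2 required, 0 members passed in each of the 10 comparisons. Leaving out 1 library, the number of members called lay between 3 and 4 for TBHQ against control, stayed at 5 for LPS, and lay between 6 and 7 for PIC, 4 and 6 for LPS + TBHQ against LPS, 5 and 6 for PIC + TBHQ against PIC, 2 and 3 for PIC against LPS, 2 and 4 for PIC + TBHQ against LPS + TBHQ, and 3 and 4 for LPS + TBHQ against control. It stayed at 3 for PIC + TBHQ against control and at 1 for the interaction. Scaling by total library size moved the median log2FC of all genes to -0.23 in PIC against control, -0.15 in PIC + TBHQ against control and -0.14 in PIC against LPS, where 985 genes were then higher and 4373 lower, against 2035 and 1752 with TMM. The split into higher and lower genes moved likewise elsewhere: LPS against control 2454 and 4558 (TMM 3283 and 3306), PIC against control 2379 and 6635 (3917 and 4120), LPS + TBHQ against LPS 2061 and 1401 (1601 and 1673), PIC + TBHQ against PIC 3398 and 1436 (2167 and 2118), PIC + TBHQ against LPS + TBHQ 890 and 2582 (1623 and 1149), LPS + TBHQ against control 2281 and 4034 (2896 and 3087), PIC + TBHQ against control 2364 and 5515 (3615 and 3563), and the interaction 235 and 74 (113 and 138). Under that scaling *Irf5* in PIC against LPS turned from 0.01 to -0.12 (FDR 0.028), and in PIC against control *Ifnar1* turned to -0.0370, *Irf2bpl* to -0.10 and *Spi1* to -0.0693. The interaction called 251 of all genes, 403 with DESeq2, 380 without a filter, 147 in limma on log2(FPKM + 0.1) and 160 without LPS + TBHQ replicate 2. Replicate numbers share only a label: libraries with the same number correlated between -0.07 and 0.14 in their deviations from the condition means, and in 0 of 15 pairs of conditions were all 3 values over 0.1. With the replicate number as a block the number of members called was the same in all 10 comparisons (4 for TBHQ, 5 for LPS, 7 for PIC, 6 for LPS + TBHQ against LPS, 6 for PIC + TBHQ against PIC, 2 for PIC against LPS, 3 for PIC + TBHQ against LPS + TBHQ, 4 and 3 for LPS + TBHQ and PIC + TBHQ against control, and 1 for the interaction). *Irf4* and the interferon genes had few or no counts.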
